A study of Mus musculus with 24 samples.

Results

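The AP-1 genes described here are Fos, Fosb, Fosl2, Jun, Junb, Jund, Atf3 and Batf of mouse splenic B cells. They were matched to the array through probe sets whose only gene symbol is one of these 8 names, which gave 11 probe sets of 45101. Each gene was represented by its brightest probe set over the 24 arrays, and all 8 were among the 14318 genes that passed a filter on low values. AP-1 is a dimer of basic leucine zipper proteins, in which a Jun protein pairs with another Jun, a Fos or an ATF/BATF protein and binds the DNA site TGANTCA or a close relative. In lymphocytes the dimers act downstream of antigen receptor signalling through MAP kinases, and they bind composite sites together with NFAT (Fos and Jun) or IRF4 (Batf with a Jun protein). Fos, Fosb, Jun, Junb and Atf3 are immediate early genes, whose transcripts are known to be induced quickly and to be short-lived.

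B cells were taken from spleens of C57BL/6 mice, labelled as 6 to 8 weeks old, and enriched with beads. In the knockout cells (KO), exon 3 of Nfatc1 carried loxP sites on both sides, and Cre driven by the Cd79a (mb-1) locus, which is active in B cells, removed it. The control cells (WT) are named only as WT, and the labels do not say whether these mice carried the floxed allele or the Cre. Each genotype was sampled after 0, 3, 8 and 16 h with anti-IgM, which engages the B cell receptor, in 3 biological replicates for each of the 8 groups. The study compared the genotypes to learn what the transcription factor NFATc1 does in B cells that receive this signal, and NFAT proteins and AP-1 share composite sites.

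Values are log2 of MAS5 signals, and each array's 40th percentile (5.375 to 6.425) served as its filter level. All 7 tested B cell markers lay above that level on every array. Their summed signal ran from 108000 to 121600 in WT at 0 h and from 41640 to 52370 at 3 h. All 7 differences at 3 h were negative, and 6 of the 7 were called lower (limma adjusted p under 0.05). Over all genes, 21.3% were called lower and 17.0% higher in WT at 3 h. Of 6 tested T cell markers 1 was called lower at 3 h in WT, 3 differences being positive and 3 negative. It was Cd2, which mouse B cells express too, with a WT mean of 12.57 at 0 h, 10.34 at 3 h and 7.41 at 16 h. The summed signal of the list was 6089 to 6608 in WT at 0 h, 1315 to 1838 at 3 h and 445.6 to 508.9 at 16 h. At 0 and 3 h it was mostly that of Cd2. Cd3d, Cd3e and Cd3g passed the filter level on at most 5 of the 24 arrays. Themis passed it on 8 and Cd8a on all 24 (6.54 to 8.09). NK cell markers summed to 751 to 1484 in WT at 0 h and 315.9 to 575.4 at 3 h. Of these 6 markers 1 was called lower, 1 difference being positive and 5 negative. Macrophage markers summed to 4462 to 11300 at 0 h and 1715 to 6250 at 3 h, and 1 of 6 was called lower, Lyz2 (12.60 at 0 h, 10.90 at 3 h). Of these 6 differences 2 were positive and 4 negative. Neutrophil markers summed to 2837 to 4322 and 2000 to 2932, and 0 of 7 were called by limma, all 7 differences being negative. Dendritic cell markers summed to 368.4 to 415.3 at 0 h and 512 to 725.8 at 3 h. Of these 5 markers 2 were called higher and 0 lower, 2 differences being positive and 3 negative. Of 4 platelet markers 0 were called, and of 3 plasma cell markers 1 was called lower. In bulk samples, fewer cells of a type and less RNA per cell cannot be told apart, and the part of these cells in the AP-1 values was not tested. The Nfatc1 probe set was not lower in KO: averaged over the 4 times it was higher by 0.56 on the log2 scale (SE 0.063, limma adjusted p = 1.12e-05). The positions of its probes relative to exon 3 were not given in the sources used here, so this value does not check the deletion. The 4 WT arrays numbered 2 had Y-linked genes above Xist, unlike the other 20.

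The promoters of the genes with the largest falls (Fos, Fosb, Jun) and of the 2 genes that rose (Fosl2, Batf) are shown because they carry the time courses described next. Each is the 250 bases before the gene's start in RefSeq (GRCm38.p6), except as given for Fosb below, and reads 5′ to 3′ on the gene's strand. Capitals mark the letters TGACG, the first part of the cAMP response element TGACGTCA, on either strand, the AP-1 site TGANTCA, and TGACATCA, a relative of it. In order, the windows lie at chr12:85473640-85473889 (plus strand), chr7:19310046-19310295 (minus), chr4:95052223-95052472 (minus), chr5:32136222-32136471 (plus) and chr12:85686470-85686719 (plus).
Fos: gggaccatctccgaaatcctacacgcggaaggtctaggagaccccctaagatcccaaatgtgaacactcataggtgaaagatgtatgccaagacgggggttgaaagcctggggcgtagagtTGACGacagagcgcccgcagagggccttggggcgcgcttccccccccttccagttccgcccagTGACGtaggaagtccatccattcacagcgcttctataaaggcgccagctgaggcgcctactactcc
Fosb: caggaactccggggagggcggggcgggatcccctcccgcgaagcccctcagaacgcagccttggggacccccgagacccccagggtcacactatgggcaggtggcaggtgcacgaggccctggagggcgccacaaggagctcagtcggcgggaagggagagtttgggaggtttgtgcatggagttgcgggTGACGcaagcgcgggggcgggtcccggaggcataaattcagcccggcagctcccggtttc
Jun: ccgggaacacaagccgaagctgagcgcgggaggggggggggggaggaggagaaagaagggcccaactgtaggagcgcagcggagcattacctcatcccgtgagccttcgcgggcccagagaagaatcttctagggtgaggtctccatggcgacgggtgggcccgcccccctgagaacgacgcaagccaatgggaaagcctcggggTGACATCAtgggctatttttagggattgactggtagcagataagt
Fosl2: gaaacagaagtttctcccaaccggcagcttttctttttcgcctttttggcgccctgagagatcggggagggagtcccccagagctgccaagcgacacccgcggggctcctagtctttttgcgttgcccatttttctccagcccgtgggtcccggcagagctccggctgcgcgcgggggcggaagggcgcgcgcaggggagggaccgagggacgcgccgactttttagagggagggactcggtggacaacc
Batf: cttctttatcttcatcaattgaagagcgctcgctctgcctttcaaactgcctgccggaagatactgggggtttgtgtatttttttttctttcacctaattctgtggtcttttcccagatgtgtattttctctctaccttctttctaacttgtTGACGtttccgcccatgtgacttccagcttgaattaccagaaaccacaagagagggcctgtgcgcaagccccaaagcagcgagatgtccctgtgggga
The gene span of Fosb in the same reference reaches 19310118, so part of its window lies inside the span. The TGACG marked in the Fosb window is in that part.

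Both strands of all 8 windows were searched, and the same windows of 32851 promoters gave the background. TGACG was present in 5 of the 8 promoters, against 17.8% of all promoters. Fos held it at 129 to 125 and at 66 to 62 bases before the start, Junb at 106 to 102 and Batf at 98 to 94. Atf3 held it on the minus strand at 7 to 3. Fosb held it at 60 to 56 bases before the end of its window, which is inside the gene span given above. The whole element TGACGTCA, of which TGACG is a part, was in none of the 8 and in 1.55% of all promoters. TGACATCA was found in Jun at 45 to 38 bases before the start and in 2.93% of all promoters. TGANTCA was in none of the 8 windows (6.75% of all), and the CArG box was in none (1.47% of all). The letters GGAAA, the core bound by NFAT proteins, were in Jun and Batf, against 55.6% of all promoters. A match is a run of letters in this window and not a measured binding site. Sites further upstream than these 250 bases, among them any CArG box there, were not searched.

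Most AP-1 transcripts were highest in the unstimulated cells and lower at the later times with anti-IgM, while Fosl2 and Batf were higher at those times. No group was sampled at 3, 8 or 16 h without anti-IgM. Effects of anti-IgM and of the time since the cells were taken therefore cannot be told apart. A change was called at a limma adjusted p (Benjamini-Hochberg, over all genes) under 0.05. In WT, 5 of the 8 genes fell and 1 rose from 0 to 3 h, where 21.3% of all genes were called lower and 17.0% higher (38.3% in all). From 0 to 8 h 6 fell and 1 rose, against 15.7% and 17.7% of all genes (33.4% in all), and from 0 to 16 h again 6 fell and 1 rose, against 18.5% and 20.9% (39.4% in all). In KO, 5 fell and 1 rose at 3 h, where 21.7% of all genes were called lower and 16.6% higher (38.3% in all). At 8 h 5 fell and 1 rose, against 14.4% and 17.3% (31.7% in all), and at 16 h 4 fell and 2 rose, against 16.4% and 19.4% (35.9% in all). The median change of the 8 genes in WT was -1.83, -2.05 and -2.20 at 3, 8 and 16 h on the log2 scale, against -0.14, -0.04 and 0.05 over all genes. In KO the medians were -1.64, -1.83 and -1.54, against -0.11, 0.02 and 0.08. The 3 changes of a genotype share its 0 h arrays and are not independent of each other.

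**Figure D1:**
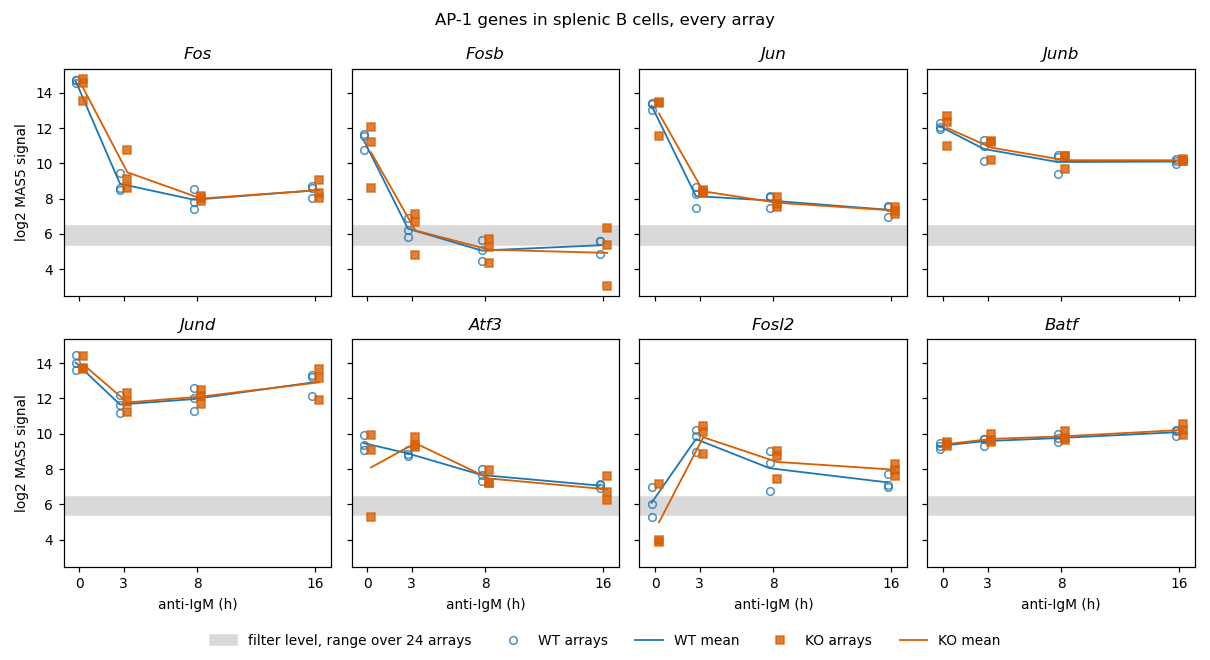
Log2 MAS5 signal of the 8 AP-1 genes (vertical axis) against hours of anti-IgM (horizontal axis), with 1 point per array (circles WT, squares KO), lines through the group means of 3 arrays, and a grey band for the range of the filter level over the 24 arrays. Fos, Fosb and Jun drop by more than 4 log2 units by 3 h in both genotypes, Fosl2 peaks at 3 h, and Batf climbs by about 0.8 by 16 h.

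Fos encodes the founding Fos protein, which cannot pair with itself and needs a Jun partner. The WT signals at 0 h were 14.71, 14.73 and 14.52. At 3 h they were 8.47, 9.45 and 8.62, at 8 h 8.55, 7.83 and 7.44, and at 16 h 8.04, 8.60 and 8.73. Every stimulated WT array lay far below every unstimulated one, and the 3 later times overlapped each other. Fos fell 56.0-fold by 3 h (-5.81, SE 0.41, limma adjusted p = 8.92e-11), 105-fold by 8 h (adjusted p = 1.75e-11, limma) and 73.4-fold by 16 h (adjusted p = 2.33e-11, limma).
In KO the unstimulated signals of Fos were 13.52, 14.78 and 14.52, followed by 10.75, 9.10 and 8.63 at 3 h, 7.85, 8.15 and 8.01 at 8 h, and 8.06, 8.34 and 9.06 at 16 h. The KO times separated from 0 h without overlap as well, and replicate 1 was the lowest array at 0 h and the highest at 3 h. The fall was 27.5-fold by 3 h (-4.78, limma adjusted p = 1.79e-09, and -5.41 without KO 3 h replicate 1), 77.1-fold by 8 h and 55.3-fold by 16 h. Between 3 and 8 h Fos fell by a further 1.49 in KO (limma adjusted p = 0.0116), but without replicate 1 at 3 h this was -0.86 (adjusted p = 0.122). In WT the same step was -0.90 (limma adjusted p = 0.149). Ordered by mean, Fos was highest in WT at 0 h (14.65 ± 0.11, SD, n = 3), then in KO at 0 h (14.27 ± 0.67), and lowest in WT at 8 h (7.94 ± 0.56), and only the step from KO at 0 h to KO at 3 h had no overlap between neighbours.

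Fosb encodes a Fos protein that can activate AP-1 sites in the same dimers. Its WT signals were 11.54, 11.66 and 10.76 at 0 h, and 5.82, 6.88 and 6.21 at 3 h. At 8 h they were 5.64, 4.47 and 5.08, and at 16 h 5.62, 4.87 and 5.59, so that the later arrays sat near or under the filter level. Fosb lay above its array's filter level on only 14 of the 24 arrays. It fell 32.4-fold by 3 h in WT (-5.02, SE 0.76, limma adjusted p = 9.2e-06). For 8 and 16 h, where the stimulated mean was under the filter level, values under the level were raised to it, which gave a fall of at least 50-fold (limma adjusted p of the unraised difference = 5.27e-07) and at least 44.6-fold (7.1e-07).
In KO the signals of Fosb were 8.59, 12.06 and 11.22 at 0 h and 7.11, 6.67 and 4.82 at 3 h. At 8 h they were 5.72, 4.38 and 5.24, and at 16 h 3.05, 6.34 and 5.39. The unstimulated KO arrays spanned a wide range, with replicate 1 lowest, but none reached down to the stimulated ones. Fosb fell 21.4-fold by 3 h (-4.42, limma adjusted p = 4.78e-05), at least 27.8-fold by 8 h (adjusted p = 3.89e-06, limma) and at least 27.2-fold by 16 h (adjusted p = 1.81e-06, limma). The 3 h difference was -5.44 without KO 0 h replicate 1, -3.70 without KO 0 h replicate 2 and -3.73 without KO 3 h replicate 3. Without low values raised, the differences of -5.51 at 8 h and -5.69 at 16 h became -6.53 and -6.71 without KO 0 h replicate 1, and -4.79 and -4.97 without KO 0 h replicate 2. The 16 h difference was also -4.76 without KO 16 h replicate 1 and -6.40 without KO 16 h replicate 2. Every one of these falls was called by limma. The 6 groups after stimulation had means from 4.93 to 6.30 and each overlapped its neighbour in that order.

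Jun encodes the main partner of the Fos proteins and the target of the kinase JNK. In WT it read 13.37, 13.39 and 13.01 at 0 h, 7.50, 8.27 and 8.68 at 3 h, 8.15, 7.45 and 8.09 at 8 h, and 7.54, 7.59 and 6.99 at 16 h. In KO it read 11.56, 13.47 and 13.44 at 0 h, 8.32, 8.51 and 8.42 at 3 h, 7.71, 7.53 and 8.07 at 8 h, and 7.15, 7.27 and 7.55 at 16 h. The unstimulated arrays of either genotype stood clear of all stimulated ones, and in the order of the 6 stimulated means, from 8.42 (KO at 3 h) to 7.33 (KO at 16 h), neighbours overlapped. Jun fell 34.5-fold by 3 h (-5.11, SE 0.36, limma adjusted p = 8.01e-11) and 59.0-fold by 16 h (adjusted p = 6.77e-12, limma) in WT. In KO the falls were 21.2-fold (-4.40, limma adjusted p = 7.9e-10) and 45.1-fold (-5.49, adjusted p = 3.69e-11). Without KO 0 h replicate 1 these differences were -5.04 and -6.13. The other probe set of Jun fell as well by 3 h, with changes of -3.91 in WT (SE 0.32, limma adjusted p over all probe sets = 1.79e-09) and -3.75 in KO (adjusted p = 3.48e-09).

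Junb and Jund, whose proteins are weaker activators than Jun in many settings and can oppose it, fell by less. Junb in WT read 12.06, 12.31 and 11.94 at 0 h, 10.99, 11.35 and 10.11 at 3 h, 10.38, 10.46 and 9.39 at 8 h, and 10.12, 10.23 and 9.95 at 16 h. The unstimulated WT arrays were above all later ones, and replicate 3 was the lowest array of each time. Junb fell 2.45-fold by 3 h in WT (-1.29, SE 0.37, limma adjusted p = 0.00684), 4.08-fold by 8 h (adjusted p = 0.000104, limma) and 4.01-fold by 16 h (adjusted p = 9.11e-05, limma). Without WT 3 h replicate 3 the change at 3 h was -0.94 (limma adjusted p = 0.0637).
In KO, Junb read 10.98, 12.71 and 12.33 at 0 h, 11.27, 11.22 and 10.18 at 3 h, 10.44, 10.43 and 9.66 at 8 h, and 10.25, 10.14 and 10.13 at 16 h. Replicate 1 at 0 h lay within the range of the 3 h arrays, and the 8 and 16 h arrays were below all unstimulated ones. Junb fell 2.17-fold by 3 h in KO (-1.12, limma adjusted p = 0.0185) and 3.56-fold by 8 h (adjusted p = 0.000371, limma) and by 16 h (adjusted p = 0.000299, limma). All neighbours in the order of the 8 group means overlapped, from 12.10 (WT at 0 h) to 10.08 (WT at 8 h). The 3 h call in KO was lost without KO 0 h replicate 2 (-0.77, limma adjusted p = 0.14), KO 0 h replicate 3 (-0.95, 0.0791) or KO 3 h replicate 3 (-0.76, 0.14), and when only these groups were fitted (0.0615).

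Jund read nearer to its unstimulated level at 16 h than at 3 h. In WT it read 14.02, 14.45 and 13.61 at 0 h, 11.60, 12.19 and 11.16 at 3 h, 12.57, 12.02 and 11.30 at 8 h, and 13.22, 13.32 and 12.15 at 16 h. In KO it read 13.75, 14.38 and 13.65 at 0 h, 11.79, 12.30 and 11.23 at 3 h, 12.13, 12.49 and 11.68 at 8 h, and 13.18, 13.66 and 11.89 at 16 h. No array at 3 or 8 h reached the unstimulated range, whereas at 16 h the KO arrays overlapped it. Jund fell by 2.37 in WT (SE 0.40, limma adjusted p = 3.96e-05) and by 2.16 in KO (adjusted p = 0.000125, limma) at 3 h. At 8 h the changes were -2.06 (limma adjusted p = 0.000239) and -1.83 (0.000959).
The change of Jund from 0 to 16 h was -1.13 in WT (limma adjusted p = 0.0285) and -1.02 in KO (limma adjusted p = 0.0523, not called). The WT call was lost without WT 0 h replicate 1 (limma adjusted p = 0.0621), WT 0 h replicate 2 (-0.92, 0.124), WT 16 h replicate 3 (-0.76, 0.187), or all 4 arrays with Y-linked genes above Xist (0.094). The KO change passed the threshold under quantile normalization (limma adjusted p = 0.0175), under median scaling (0.0205), with the filter at the 60th percentile (0.0426), with the 2 highest-background arrays left out (0.0141), and without any 1 of 7 arrays, among them KO 16 h replicate 2 (0.0135). The others were WT 3 h replicate 2, WT 8 h replicates 1 and 3, WT 16 h replicate 3 and KO 3 h replicates 2 and 3, with limma adjusted p from 0.0404 to 0.0498. The 8 group means ran from 14.03 (WT at 0 h) to 11.65 (WT at 3 h), and each overlapped its neighbour. The step from 8 to 16 h was 0.93 in WT (limma adjusted p = 0.184) and 0.81 in KO (0.325). Both steps, and the KO change from 0 to 16 h, were called with replicate number as a fixed block, as given at the end. Of the 3 arrays of a group, the one numbered 3 was the lowest for Jund in 8 of 8 groups, a pattern shared by 2.80% of all genes, and for Junb in 7 of 8. A further, dim probe set of Jund exceeded the filter level on 7 arrays and was not called in any change from 0 h.

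**Figure D2:**
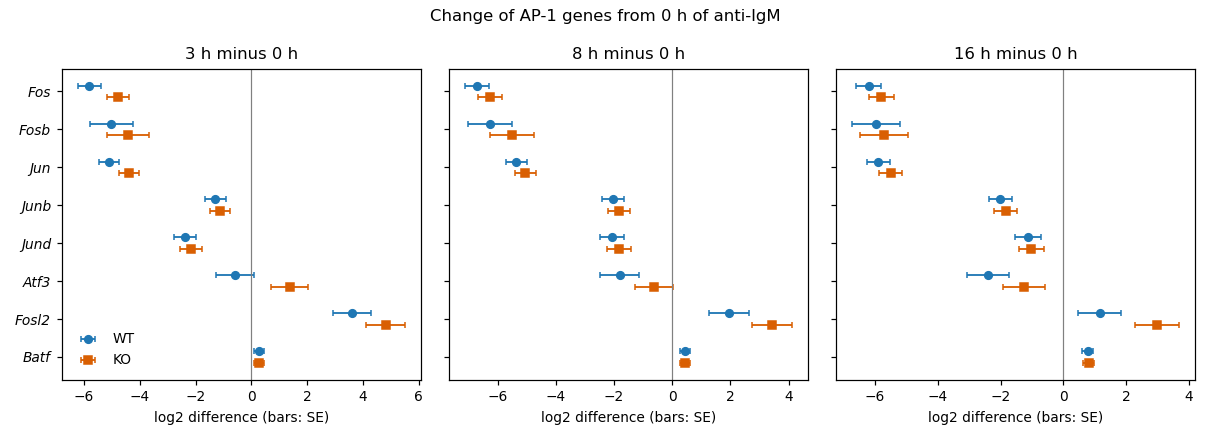
Change from 0 h on the log2 scale (horizontal axis) at 3, 8 and 16 h for each AP-1 gene (vertical axis), with circles for WT, squares for KO and bars for limma's standard error, as fitted without raising low values. Fos, Fosb and Jun lie between -6.71 and -4.40, Junb and Jund between -2.37 and -1.02, and Fosl2 and Batf to the right of 0.

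Atf3 encodes a stress-induced protein that as a homodimer represses its sites. In WT it read 9.07, 9.38 and 9.95 at 0 h and 8.72, 9.08 and 8.85 at 3 h. At 8 h it read 7.99, 7.64 and 7.34 and at 16 h 6.94, 7.17 and 7.07. The 3 h arrays reached into the unstimulated range, and the 8 and 16 h arrays were below it and apart from each other. The change in WT was -0.58 at 3 h (SE 0.67, limma adjusted p = 0.552), -1.81 at 8 h (0.0399) and -2.40 at 16 h (0.00528), the last a fall of 5.29-fold.
In KO, Atf3 read 5.26, 9.07 and 9.94 at 0 h, 9.80, 9.36 and 9.24 at 3 h, 7.22, 7.94 and 7.23 at 8 h, and 6.22, 6.72 and 7.61 at 16 h. One unstimulated KO array, replicate 1, lay under its filter level and below every other array of this gene, so that 0 h overlapped each later time. None of the KO changes from 0 h was called: 1.37 at 3 h (limma adjusted p = 0.116), -0.63 at 8 h (0.549) and -1.24 at 16 h (0.164). Without KO 0 h replicate 1 they were -0.04 (limma adjusted p = 0.956), -2.04 (9.05e-05) and -2.66 (2.57e-06), and without KO 0 h replicate 3 the 3 h change was called as higher (0.00524). That array also widened the spread used for WT: without it the WT changes of Atf3 at 8 and 16 h had limma adjusted p of 6.9e-05 and 1.21e-06.
The group means of Atf3 ran from 9.47 (WT at 0 h) to 6.85 (KO at 16 h), and neighbours were apart only between KO and WT at 3 h and between KO at 8 h and WT at 16 h. With all arrays, the WT call of Atf3 at 8 h was lost without any 1 of the 6 WT arrays at 0 and 8 h (limma adjusted p from 0.0515 to 0.132), without the 4 arrays with Y-linked genes above Xist (-1.84, 0.161), under quantile normalization (0.0511) and under median scaling (0.0653). In KO Atf3 fell 4-fold between 3 and 8 h (limma adjusted p = 0.0375), which was lost without KO 3 h replicate 1, 2 or 3 (-1.83, -2.05 and -2.11) or KO 8 h replicate 1 or 3 (-1.88 in either case), with adjusted p from 0.063 to 0.122.

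Fosl2 encodes Fra-2, a Fos protein without the strong activation domain of Fos, and it was the one of the 3 Fos genes among the 8 that rose. The WT signals were 5.30, 6.02 and 6.96 at 0 h and 9.88, 10.22 and 8.99 at 3 h. At 8 h they were 8.37, 9.04 and 6.73, and at 16 h 7.07, 6.96 and 7.69. The 3 h arrays were all above the unstimulated ones, while 1 of the 8 h arrays fell back among them. Fosl2 rose 12.2-fold by 3 h in WT (3.60, SE 0.69, limma adjusted p = 0.000164) and 3.87-fold by 8 h (1.95, adjusted p = 0.0316), and was 1.15 above the start at 16 h (0.213, not called). The 8 h call was lost without WT 0 h replicate 1 (limma adjusted p = 0.143) or 2 (0.074) or WT 8 h replicate 1 (0.0949) or 2 (1.46, 0.17), and without the 4 arrays with Y-linked genes above Xist (1.42, 0.285). It was 2.61 without WT 8 h replicate 3.
In KO, Fosl2 read 3.95, 3.85 and 7.15 at 0 h, 10.46, 10.08 and 8.86 at 3 h, 9.04, 8.76 and 7.42 at 8 h, and 7.61, 7.96 and 8.31 at 16 h. Replicates 1 and 2 at 0 h lay under the filter level, replicate 3 did not, and every stimulated KO array was above all 3. With values under the level raised to it, Fosl2 rose at least 12-fold by 3 h (limma adjusted p of the unraised difference = 4.4e-06), at least 4.54-fold by 8 h (0.000384) and at least 3.34-fold by 16 h (0.00128). Without low values raised, the differences of 4.82, 3.42 and 2.98 became 5.90, 4.50 and 4.06 without KO 0 h replicate 3. In order of mean, both genotypes were highest at 3 h (KO 9.80 ± 0.83, WT 9.70 ± 0.64, SD, n = 3), and the neighbours from 3 to 16 h overlapped. The second probe set of Fosl2, above the filter level on all 24 arrays, changed by 0.74 in WT (limma adjusted p over all probe sets = 0.116) and 0.50 in KO (0.315) at 3 h, so the probe sets disagreed on the size of the rise and only the brighter one was called.

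Batf encodes a small AP-1 protein that pairs with Jun proteins and, with IRF4, is needed for class switching and for several T helper programmes. It read 9.16, 9.29 and 9.47 in WT at 0 h, 9.71, 9.70 and 9.32 at 3 h, 9.75, 9.998 and 9.50 at 8 h, and 10.15, 9.87 and 10.22 at 16 h. In KO it read 9.39, 9.32 and 9.53 at 0 h, 9.96, 9.64 and 9.52 at 3 h, 10.16, 9.76 and 9.65 at 8 h, and 10.20, 9.92 and 10.53 at 16 h. The arrays of 3 h overlapped the unstimulated ones in both genotypes, and those of 8 and 16 h did not. Batf rose 1.71-fold by 16 h in WT (0.77, SE 0.18, limma adjusted p = 0.000966) and 1.74-fold in KO (0.80, adjusted p = 0.000789, limma).
At 8 h Batf was 0.45 above the start in WT (limma adjusted p = 0.0568) and 0.44 in KO (0.0604), neither of which was called. Under quantile normalization both passed the threshold (limma adjusted p = 0.0185 and 0.0155). The WT change also passed without WT 0 h replicate 3, WT 8 h replicate 3, KO 8 h replicate 1 or KO 16 h replicate 2 or 3 (limma adjusted p from 0.0273 to 0.0476), and the KO change without KO 8 h replicate 3 or KO 16 h replicate 2 or 3 (0.0406 to 0.0497). Its 8 group means lay between 9.31 and 10.22, and each overlapped its neighbour.

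Between later times few steps passed the test. From 3 to 8 h, 2 of the 8 genes were called lower in KO, Fos and Atf3. Of the 14318 genes, 860 were called lower and 1890 higher at this step in KO (19.2% in all). In WT the same step called 0 of the 8 (15.9% of all genes, with 2 of the 8 at an unadjusted p under 0.05). From 8 to 16 h, 0 of the 8 were called in either genotype by limma (7.75% of all genes in WT and 4.66% in KO, with 1 and 0 of the 8 at an unadjusted p under 0.05). With replicate number as a fixed block, Jund was called for this step in both genotypes, as given at the end.

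No AP-1 gene was called between the groups labelled KO and WT, in comparisons that called few genes of any kind. By limma, 0 of the 8 genes differed between KO and WT at 0 h (0.0349% of all genes were called), at 3 h (0.0559%), at 8 h (0.0978%), at 16 h (0.615%) or averaged over the 4 times (1.21%), and 0 had an unadjusted p under 0.05 in these 5 comparisons. The counts of 0 held under each alternative that was run. Averaged over the 4 times, Fos differed by 0.09 (95% interval -0.33 to 0.51), Fosb by -0.29 (-1.08 to 0.49) and Jun by -0.08 (-0.45 to 0.28). Junb differed by 0.04 (-0.34 to 0.42), Jund by 0.04 (-0.38 to 0.46) and Batf by 0.12 (-0.06 to 0.30). Atf3 differed by -0.30 (-0.99 to 0.39) and Fosl2 by 0.02 (-0.70 to 0.73). The interval of Fosl2 held differences of over 1.5-fold in both directions, and those of Fosb and Atf3 held them in the direction of lower levels in KO. These averaged intervals treat all arrays of a genotype as independent. They may be too narrow if same-numbered arrays share a mouse, which the labels do not say.

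**Figure D3:**
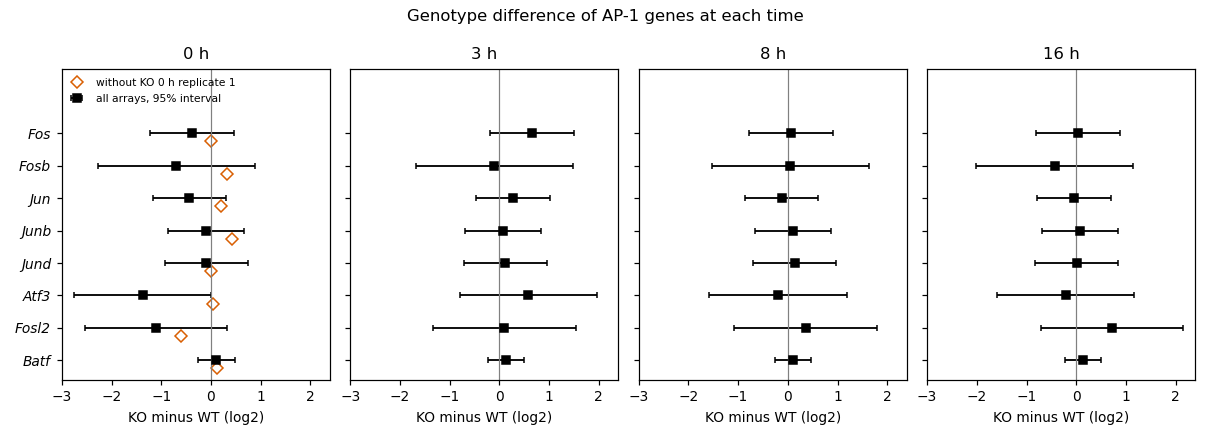
KO minus WT on the log2 scale (horizontal axis) for each AP-1 gene (vertical axis) at 0, 3, 8 and 16 h, with limma's 95% interval (bars, 3 arrays a group). Diamonds at 0 h give the difference without KO 0 h replicate 1. Every interval includes 0, and that of Atf3 at 0 h ends at 0.01.

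The change over time was also compared between the genotypes. In the tests of that difference, 0 of the 8 genes were called for the change from 0 to 3 h, 8 h or 16 h (0%, 0% and 0.0210% of all genes by limma) or in the joint F-test (0.0140%). For Atf3 from 0 to 3 h the KO change exceeded the WT change by 1.96 (SE 0.94, limma adjusted p = 1), the only one of these single tests with an unadjusted p under 0.05. Without KO 0 h replicate 1 it was 0.54 (limma adjusted p = 1).

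The unstimulated KO array numbered 1 stood apart in this gene family. It was the lowest of the 6 unstimulated arrays for Fos, Fosb, Jun, Junb and Atf3, 5 of the 8 genes, and the lowest for 17.0% of all genes. Against the mean of the other 5 it was -1.13 for Fos, -2.86 for Fosb, -1.78 for Jun, -1.29 for Junb and -4.22 for Atf3. It was near that mean for Jund (-0.27) and Batf (0.04), and for Fosl2 it was -1.90 together with KO replicate 2. Of 20 other immediate early genes it was the lowest for 17, with a median difference of -0.96 over the 20 against 0.05 over all genes, and of 9 heat shock genes it was the lowest for 3. The cause was not tested. Without this array KO minus WT at 0 h was -0.00057 instead of -0.38 for Fos, 0.32 instead of -0.70 for Fosb, 0.20 instead of -0.44 for Jun, 0.42 instead of -0.10 for Junb and 0.04 instead of -1.38 for Atf3. For Fosl2 it was -0.60 instead of -1.11, and with all arrays but values under the filter level raised to it, -0.02. None of the 8 differences was called with or without it by limma.

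**Figure D4:**
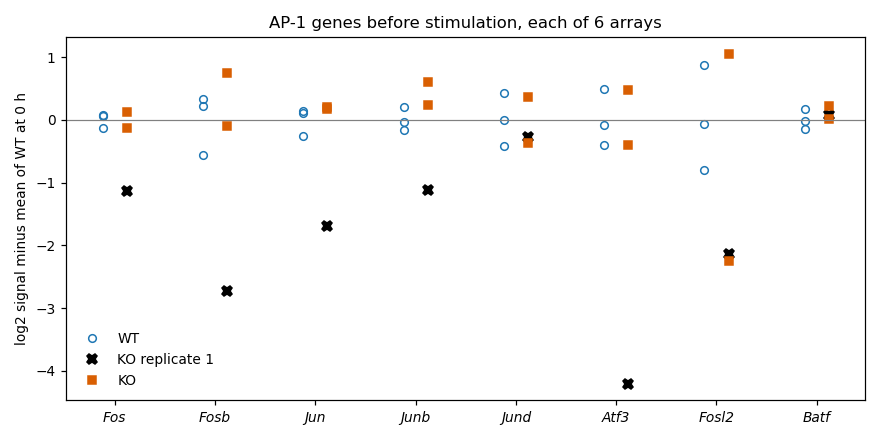
Log2 signal of each unstimulated array minus the WT mean at 0 h (vertical axis) for the 8 AP-1 genes (horizontal axis), with circles for WT, squares for KO replicates 2 and 3 and crosses for KO replicate 1. The crosses lie below all other arrays for Fos, Fosb, Jun, Junb and Atf3.

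Genes whose partners and regulators work with AP-1 were counted beside the 8 members at 3 h in WT, where 17.0% of all genes were called higher and 21.3% lower. Of 19 tested genes for other basic leucine zipper proteins, which can pair with Jun or ATF proteins or bind related sites, 10 rose and 2 fell (median 0.67). Mafg, a small Maf protein, rose by 2.46 (limma adjusted p = 1.08e-09), Bach1, a repressor of Maf sites, by 1.56 (2.95e-08) and Nfe2l2, the antioxidant regulator Nrf2, by 0.97 (1.27e-05). Fosl1, the remaining Fos gene, encodes Fra-1. Its WT mean was under the filter level at 0 h, and it rose at least 7.38-fold (limma adjusted p of the unraised difference = 2.77e-05). Creb1, which binds the cAMP response element, fell by 0.59 (limma adjusted p = 0.000147).

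Of 18 genes of the MAP kinase cascades that act on AP-1 proteins, 3 rose and 9 fell at 3 h in WT (median -0.47). Among those that fell were Mapk14, the p38 alpha kinase (-1.98, limma adjusted p = 7.5e-12), Rasgrp1 (-2.78, 1.42e-10) and Rasgrp3 (-2.11, 6.6e-10), both activators of Ras, and Rps6ka5, the kinase MSK1 (-3.26, 9.56e-09). Map2k3, which activates p38, rose by 2.04 (limma adjusted p = 3.75e-10). Of 6 genes for SRF, which binds the serum response element of Fos, and its cofactors, 4 fell and the other 2 were not called. Those that fell were Mrtfa (-2.26, limma adjusted p = 6.48e-09), Mrtfb (-0.66, 0.000356), Elk3 (-1.20, 0.00176) and Elk4 (-0.36, 0.00594). Of 6 genes for AP-1 protein turnover, Cops5 rose by 0.72 (limma adjusted p = 2.63e-05) and Itch, a ligase for Jun proteins, fell by 0.73 (0.00939).

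Among 8 partners at composite sites, 2 rose and 5 fell at 3 h in WT. Nfatc1 rose by 1.30 (limma adjusted p = 1.29e-08) and Irf4, the partner of Batf, by 1.75 (2.03e-06), while Ets1 (-2.07, 8.05e-05), Nfatc2 (-1.27, 0.000101) and Spi1 (-1.17, 2.48e-05) fell. Of 18 genes known to have AP-1 sites, 7 rose and 1 fell (median 0.65). Il2ra, the interleukin 2 receptor alpha chain, rose at least 18.8-fold (limma adjusted p of the unraised difference = 8.4e-10), Prdm1, the plasma cell regulator Blimp-1, by 1.89 (2.22e-07) and Cd44 by 1.29 (3.79e-05), and Dusp1, a phosphatase of MAP kinases, fell by 3.05 (4.82e-07).

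The 20 other immediate early genes did not all move with Fos and Jun, since 6 rose and 7 fell at 3 h in WT. Nr4a3 rose by 6.07 (limma adjusted p = 1.43e-10), Egr2 by 3.49 (1.85e-08) and Egr1 by 0.80 (0.00776), the last chosen after its value was seen. Klf2 (-4.28, limma adjusted p = 7.39e-12), Klf4 (-3.96, 2.7e-07) and Btg2 (-2.05, 1.58e-06) fell. Of 9 heat shock genes, 2 rose and 5 fell, among them Hspa1b (-4.03, limma adjusted p = 1.51e-05) and Hspa1a (-2.66, 0.00673). These 2 genes are near-identical copies, and their signals may not be separable.
In KO at 3 h, where 16.6% of all genes were called higher and 21.7% lower, the same lists gave 12 higher and 1 lower of 19 for the basic leucine zipper genes, 3 and 9 of 18 for the MAP kinase cascades and 0 and 4 of 6 for SRF and its cofactors. The composite site partners had 2 higher and 5 lower of 8, the genes with AP-1 sites 10 and 1 of 18, the other immediate early genes 8 and 7 of 20, and the heat shock genes 3 and 3 of 9.

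Over the 24 arrays, the genes with the profile most like each AP-1 gene were named by Pearson's r of log2 signals, as a description in which all genes share the arrays, the 8 groups and the scaling. They were Macf1, Myl12b and H1f2 for Fos (r from 0.969 to 0.976), Klf4, Fos and H1f2 for Fosb (0.956 to 0.969), and Cd55, Acp5 and Rasa3 for Jun (0.976 to 0.98). For Junb they were Rhob, Zfp36l2 and Ppp1r15a (0.926 to 0.952), and for Jund Bbip1, Cotl1 and Rac2 (0.936 to 0.944). Cd69, Dnajb9 and Trp53inp2 were nearest to Atf3 (0.877 to 0.888), Cd83, Pdxk and Ubox5 to Fosl2 (0.906 to 0.924), and Cox17, Stat5a and Sec13 to Batf (0.856 to 0.867). Among the members, Fos and Jun had r = 0.969, Fos and Fosb 0.957, and Fos and Fosl2 -0.622.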

How the data were processed

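RNA of 24 samples was measured on 1 Affymetrix expression array each. Per the submitters' processing notes the signals came from MAS5, whose version is not given in the sources used here. The deposited values are log2 signals: back-transformed low values had 1 decimal, and the mean after trimming 2% at each end was 500 on every array. They were used as deposited.

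Of 45101 probe sets, 33486 exceeded their array's 40th percentile on at least 3 arrays, 26671 of these had 1 gene symbol in the platform's probe table, and the brightest per gene gave 14318 genes. No detection calls were used. The tests used limma 3.58.1 under R 4.3.3 (1 mean for each of 8 groups, 16 residual degrees of freedom, eBayes with trend). Calls required an adjusted p (Benjamini-Hochberg over all genes tested) under 0.05. Standard errors and 95% intervals are limma's, and fold changes are 2 to the power of the log2 difference. The fit was tested on simulated data. If the mean of the dimmer group was under the mean filter level, values under the level were raised to it and the fold is a bound.

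The AP-1 members, the context lists, the tests and the alternatives were chosen with earlier results of these data known. Named are the 8 members, their other probe sets, the 3 tested genes most correlated with each, and called genes of the context lists, up to 6 per list in order of adjusted p. The replicates are named biological by the submitters, and the number of arrays limits the precision. Alternatives were other scalings, filters, fits, blocks by replicate number, and leaving out single arrays, the arrays with Y-linked genes above Xist or the 2 arrays of highest background.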

Additional observations from a re-analysis of the deposited data

How the results depend on the processing

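Directions of the called AP-1 changes were the same under each alternative. The counts of called members from 0 h stayed within 1.5 times: over single arrays left out they were 5 to 6 (WT 3 h), 5 to 8 (WT 8 h), 6 to 7 (WT 16 h), 5 to 6 (KO 3 h), 6 to 7 (KO 8 h) and 6 to 7 (KO 16 h) of 8, and 0 in every comparison of the genotypes. Median scaling moved the median of all genes by 0.239 at 3 h and 0.157 at 8 h in WT, by 0.148 at 3 h in KO and by -0.11 from 3 to 8 h in KO, and quantile normalization by 0.126 at 3 h in WT. Under both scalings the members at 3 h were again 1 higher and 5 lower. Median scaling raised the share of higher calls among all genes from 44.5% to 60.3% at 3 h and from 53.1% to 64.0% at 8 h in WT, and from 3 to 8 h lowered it from 64.9% to 51.5% in WT and from 68.7% to 54.5% in KO. From 8 to 16 h in WT it fell from 49.5% to 31.2%. With quantile normalization 2 members were higher and 5 lower at 8 h in either genotype.

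From 3 to 8 h in WT, 1 member in place of 0 was called with low values raised to the filter level (Fosl2, limma adjusted p = 0.0377), with only the compared groups fitted (Atf3, 0.0108), without KO 0 h replicate 1 (Atf3, 0.00939) or without KO 0 h replicate 3 (Fosl2, 0.0372), a range of 0 to 1 over single arrays. In KO the count of 2 became 1 with every probe set tested on its own, without the trend, without the 4 arrays with Y-linked genes above Xist and without the 2 of highest background, Atf3 being lost each time (limma adjusted p from 0.0509 to 0.0755), and ranged from 0 to 2 over single arrays. Without the trend Atf3 (0.0758) and Fosl2 (0.0622) in WT at 8 h and Jund in WT at 16 h (0.0608) were lost as well. Calls of all genes moved by over 1.5 times in the contrasts with few calls: the averaged genotype difference had 173, and 8 to 425 under the alternatives, 16 h had 88 and 36 to 208, and the step from 8 to 16 h had 1110 in WT (447 to 2010) and 667 in KO (217 to 1421). From 3 to 8 h these were 2273 in WT (885 to 3327) and 2750 in KO (1133 to 3831). Genotype differences at 0, 3 and 8 h, with 5, 8 and 14 calls, had 0 to 10, 0 to 21 and 3 to 38, and the 16 h interaction and the F-test, with 3 and 2, had 0 to 25 and 0 to 15.

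It is not stated whether same-numbered arrays of a genotype share a mouse. Same-numbered arrays within a genotype deviated together (36 pairs, median r 0.0939, from 0.02 to 0.374, 16 of them over 0.1) more than differently numbered ones (72 pairs, median r -0.0486, 0 over 0.1). Each array correlated best with its own number, and the 4 WT arrays numbered 2 share the Y-linked expression, a hint from the data that numbers may mark a shared source. Since not every pair was over 0.1 and the labels name no shared source, the tests have no block. With replicate number as a fixed replicate block, 1 member in place of 0 was called from 8 to 16 h in WT (Jund, limma adjusted p = 0.00176) and in KO (Jund, 0.00859). With genotype and number as a random block (consensus correlation 0.208) it was 1 in WT (Jund, 0.0437). Under the fixed and the random block Jund in KO at 16 h (limma adjusted p = 0.000121 and 0.00833) and Batf at 8 h in WT (0.0407 and 0.0333) and KO (0.0435 and 0.0356) were called too. Fosb and Fosl2 read near the filter level in several groups, where low signals limit the size of their changes.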
